A study of Mus musculus with 6 samples.

Results

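The 5 lysyl oxidase genes of the mouse, Lox and Loxl1 to Loxl4, and Tgm2, the gene of transglutaminase 2, are described here in primary hepatic stellate cells. These 6 genes were taken by symbol, as the enzymes that crosslink the extracellular matrix, from the 56691 genes of the deposited table, and all 6 passed the filter on low counts. Their responses differed in size, and between the K-80003 group and Control also in direction. With TGF-beta the log2 change over Control was positive for all 6. The rises of Lox, Loxl1 and Loxl2 passed the test (edgeR adjusted p under 0.05). When K-80003 was added, the log2 change against TGF-beta alone was negative for all 6. The falls of Loxl1, Loxl2, Loxl3 and Tgm2 passed. Lox was then at 162 ± 10.4 FPKM, against 203 ± 13.1 FPKM with TGF-beta alone and 27.7 ± 5.4 FPKM in Control (SD, n = 2 each). FPKM is a count scaled by the exonic length of the gene and the total of the library, so that levels of genes of different length can be compared.

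Poly(A) RNA was sequenced from hepatic stellate cells, the vitamin A-storing pericytes that become the main matrix-producing cells of the fibrotic liver. All cells were primary cells from the livers of wild-type mice, and there were 2 libraries in each of 3 groups. The groups were cells that got K-80003, a compound, on top of TGF-beta (the K-80003 group), cells given TGF-beta alone, and Control cells given neither agent as far as the labels say. The title of the study concerns the nuclear receptor RXRα, a partner of the retinoic acid receptors among others, and the kinases CaMKKβ and AMPKα. No group received K-80003 alone, so its effect can be read only on top of TGF-beta. The sources used here do not give doses, treatment times, or the sex, age and number of the mice. The labels do not say whether the 2 libraries of a group came from separate cultures or animals, so p-values measure the spread between these libraries, which may be technical.

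Lysyl oxidases are secreted copper enzymes that oxidise lysine and hydroxylysine side chains of collagen and elastin to aldehydes, which then condense into the crosslinks that make fibrils stiff and hard to degrade. Lox and Loxl1 are made with a propeptide that is cut off outside the cell, Lox by the protease Bmp1, whereas Loxl2, Loxl3 and Loxl4 carry scavenger receptor cysteine-rich domains in front of the catalytic domain. Transglutaminase 2 is unrelated to them: it is a calcium-dependent enzyme that joins glutamine to lysine side chains, and it also binds GTP and, at the cell surface, fibronectin and integrins. In fibrotic liver both kinds of enzyme are known for stabilising scar matrix.

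What the lysyl oxidases have in common is a copper site with 3 closely spaced histidines in the catalytic domain. The coding bases around this site are shown for 4 of the 5 genes, because they show how near to each other the members lie in the part they share. Each line gives 45 bases, read 5′ to 3′ on the coding strand from the GENCODE M21 transcripts (mouse build GRCm38), with the 3 histidine codons in capitals.
Loxl1: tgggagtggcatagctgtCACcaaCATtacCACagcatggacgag
Loxl2: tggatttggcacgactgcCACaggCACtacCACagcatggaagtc
Loxl3: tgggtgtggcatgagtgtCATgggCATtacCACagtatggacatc
Loxl4: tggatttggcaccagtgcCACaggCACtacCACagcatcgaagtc
Over this stretch Loxl4 differed from Loxl2 at 3 bases, Loxl3 at 11, Lox at 13 and Loxl1 at 14. Over the whole transcripts, the longest run of identical bases shared by any pair of members was 32, between Lox and Loxl1, followed by 28 between Loxl1 and Loxl2. Tgm2 shared no run longer than 13 bases with any lysyl oxidase. The read length is not given in these sources, and whether reads from such shared runs were split between members was not tested.

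Summed counts were between 15646093 and 19004144 per library, and the smallest count of any member was 163, for Loxl1 in Control replicate 1. Stellate cell markers were present, and by mean CPM (counts brought to one library total, with no correction for length) over all 6 libraries Dcn, Reln and Pdgfrb led the 13. Lrat, the enzyme that esterifies vitamin A for storage, averaged 11.7 ± 0.962 CPM with K-80003, 434.8 ± 60.4 CPM with TGF-beta and 938.7 ± 230.1 CPM in Control. The summed level of the 13 was 4855.9 to 5849.4 CPM in the K-80003 group, 8543.3 to 9788.9 CPM with TGF-beta and 9930.2 to 11893.3 CPM in Control. Some libraries of different groups were more alike than libraries of the same group. The chi-square per degree of freedom over all genes was 43.7 between TGF-beta replicate 2 and Control replicate 1, against 48.0 within TGF-beta and 52.5 within Control. Within the K-80003 group it was 20.9. Deviations of replicate 1 from its group mean were shared between groups. They correlated at 0.834 between K-80003 and Control, -0.845 between K-80003 and TGF-beta, and -0.875 between TGF-beta and Control. The edgeR fit behind the calls below has no block for the replicate number, so this shared spread stays in its error.

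Lox, the founding member of the family and the main crosslinker of fibrillar collagen and elastin (ENSMUSG00000024529, GRCm39 chromosome 18, 52649139 to 52662939, minus strand), had the widest range of the 6. Its level was 169.30 and 154.57 FPKM in the K-80003 libraries, 193.25 and 211.81 FPKM in the TGF-beta libraries, and 31.52 and 23.88 FPKM in the Control libraries. Both treated groups lay far above Control, and the K-80003 libraries lay below both TGF-beta libraries. Against Control, TGF-beta raised Lox 7.95-fold (log2 fold change 2.99, SE 0.2, edgeR adjusted p = 0.006), the 30th largest rise among 15987 genes tested. With K-80003 present Lox was still 5.9-fold above Control (2.56, SE 0.2, edgeR adjusted p = 0.000781). The difference between K-80003 with TGF-beta and TGF-beta alone did not pass the test (-0.43, SE 0.19, 95% interval -0.88 to 0.03, edgeR adjusted p = 0.247). It passed in 1 of 9 other alternatives, a block with the TGF-beta replicate numbers crossed (the crossed block; edgeR adjusted p = 0.000211). That block was added after the data were seen. The interval of the fit with no block reaches a fall of 0.88 on the log2 scale, so a moderate lowering of Lox by K-80003 was within the error. Leaving out any of the 6 libraries kept both calls of Lox against Control. In bulk RNA, fewer expressing cells and less RNA per cell cannot be told apart, for Lox and for every other gene below.

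**Figure D1:**
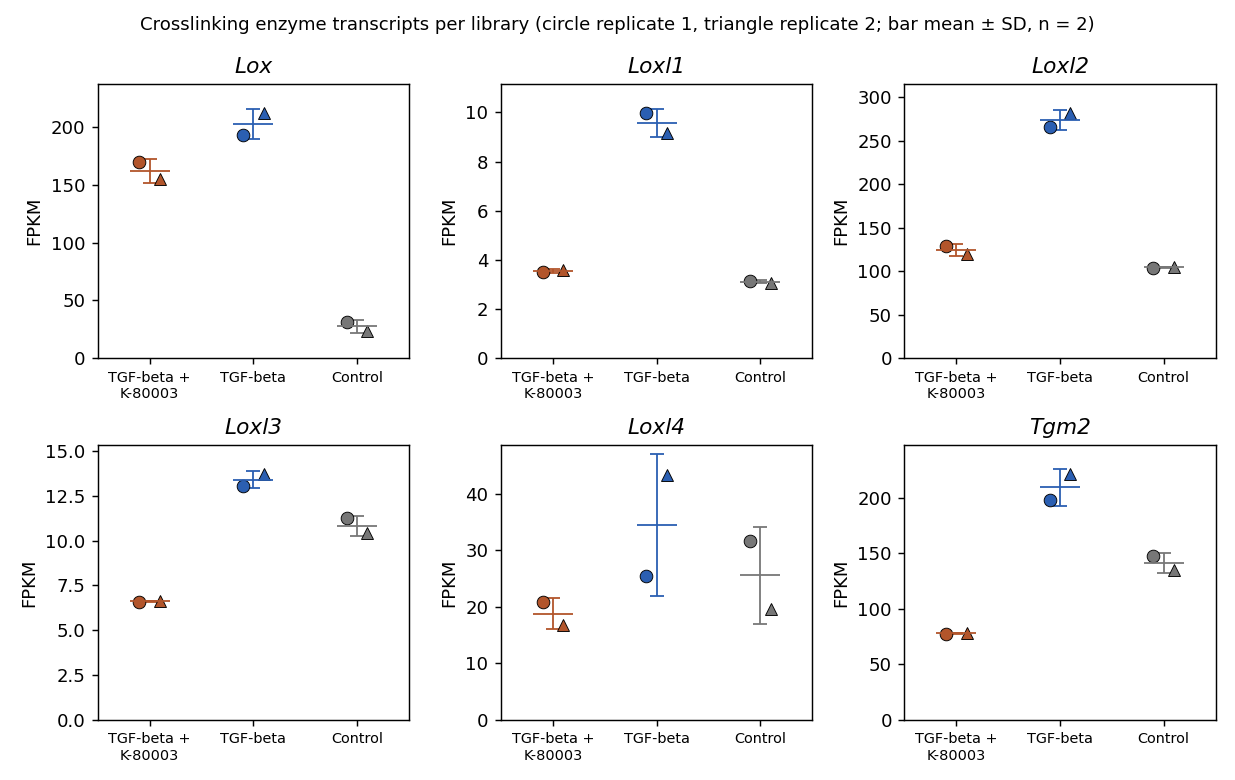
Level of each of the 6 genes in FPKM (vertical axis, linear from 0, a separate scale per gene) in each library, with the mean and SD of the 2 libraries of the K-80003, TGF-beta and Control groups. Lox was at 169.30 and 154.57 FPKM with K-80003, against 31.52 and 23.88 FPKM in Control, while Loxl1 and Loxl2 lay near Control in the K-80003 group and Loxl3 and Tgm2 lay below it.

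Loxl1, an enzyme needed for elastic fibre renewal (ENSMUSG00000032334, chromosome 9, 58195021 to 58220469, minus strand), was the least abundant member in every group. It had 3.51 and 3.61 FPKM in the K-80003 libraries, 9.97 and 9.16 FPKM in the TGF-beta libraries, and 3.16 and 3.07 FPKM in the Control libraries. The TGF-beta libraries stood apart, and the other 4 libraries differed by less than 1 FPKM. TGF-beta raised Loxl1 3.34-fold over Control (log2 1.74, SE 0.14, edgeR adjusted p = 0.0061). With K-80003 it was 2.89-fold below TGF-beta alone (log2 -1.53, SE 0.14, edgeR adjusted p = 0.00179). Both calls were kept without any one library. Against Control, the K-80003 group differed by a log2 of 0.21 (95% interval -0.14 to 0.55, edgeR adjusted p = 0.409), so a rise of up to 0.55 on that scale was not excluded by the interval.

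Loxl2, which acts on collagen IV as well as on fibrillar collagen (ENSMUSG00000034205, chromosome 14, 69846517 to 69933283, plus strand), followed the same order at a much higher level. It had 129.11 and 120.04 FPKM in the K-80003 libraries, 266.08 and 282.06 FPKM in the TGF-beta libraries, and 103.95 and 105.20 FPKM in the Control libraries. As for Loxl1, the TGF-beta libraries stood apart, and the K-80003 libraries lay a little above Control without overlapping it. The rise with TGF-beta was 2.85-fold (log2 1.51, SE 0.14, edgeR adjusted p = 0.00789, and 0.0587 with the replicate number as a block). The K-80003 group was 2.37-fold below TGF-beta alone (log2 -1.24, SE 0.14, edgeR adjusted p = 0.00368). That call was lost without K-80003 replicate 2 (log2 -1.17, edgeR adjusted p = 0.0669). Between K-80003 and Control the log2 difference was 0.27 (95% interval -0.07 to 0.6, edgeR adjusted p = 0.266, and 0.0146 with the crossed block).

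Loxl3, a family member required for cartilage and palate development in mice (ENSMUSG00000000693, chromosome 6, 83011154 to 83029543, plus strand), showed a different order. Its level was 6.58 and 6.63 FPKM in the K-80003 libraries, 13.04 and 13.69 FPKM in the TGF-beta libraries, and 11.25 and 10.45 FPKM in the Control libraries. Here the K-80003 libraries stood apart, below Control as well as below TGF-beta. The difference between TGF-beta and Control did not pass the test (log2 0.42, SE 0.14, 95% interval 0.09 to 0.75, edgeR adjusted p = 0.209, and 0.00131 with the crossed block). Loxl3 was 2.18-fold lower with K-80003 than with TGF-beta alone (log2 -1.12, SE 0.14, edgeR adjusted p = 0.00497), and 1.63-fold lower than in Control (log2 -0.7, SE 0.14, edgeR adjusted p = 0.0183). Both calls rested on having both K-80003 libraries. Without K-80003 replicate 1 or 2, the edgeR adjusted p was 0.07 or 0.0751 against TGF-beta and 0.154 or 0.168 against Control. The call against Control was also lost without Control replicate 1 (0.0744) and with the replicate number as a block (0.0727).

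Loxl4, the member nearest to Loxl2 in the stretch printed above (ENSMUSG00000025185, chromosome 19, 42582421 to 42601252, minus strand), varied widely within groups. It had 20.81 and 16.83 FPKM in the K-80003 libraries, 25.54 and 43.36 FPKM in the TGF-beta libraries, and 31.72 and 19.58 FPKM in the Control libraries. The TGF-beta and Control libraries overlapped, and so did the K-80003 and Control libraries. Both K-80003 libraries lay below both TGF-beta libraries. K-80003 replicate 1, TGF-beta replicate 2 and Control replicate 1 were the higher of their groups. No comparison passed the test in the main fit, which has the filter on low counts and no block. The comparison of K-80003 with TGF-beta passed in edgeR without that filter and in DESeq2. The log2 differences were 0.55 for TGF-beta against Control (SE 0.34, 95% interval -0.28 to 1.38), -0.98 for K-80003 against TGF-beta (SE 0.35, 95% interval -1.82 to -0.15, edgeR adjusted p = 0.15) and -0.43 for K-80003 against Control (SE 0.34, 95% interval -1.26 to 0.4). Leaving out 1 library gave 0.1 to 0.96 for the first of these, -1.33 to -0.57 for the second and -0.78 to -0.03 for the third, with none called. In the fit with no block the SE of Loxl4 was the largest among the 6 members in all 3 comparisons. With the crossed block, added after the data were seen, all 3 comparisons of Loxl4 passed. The edgeR adjusted p was then 4.76e-05 for TGF-beta against Control, 3.37e-10 for K-80003 against TGF-beta and 0.00116 for K-80003 against Control.

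Of the 6 members, Loxl4 was the one with a promoter window in the RefSeq table (GRCm38.p6, chr19:42612807-42613056, minus strand). The 250 bases before its start are printed because they hold 1 copy of CAGAC, the box bound by SMAD proteins, which carry the TGF-beta signal; it is in capitals and spans bases -226 to -222 from the start.
Loxl4 promoter: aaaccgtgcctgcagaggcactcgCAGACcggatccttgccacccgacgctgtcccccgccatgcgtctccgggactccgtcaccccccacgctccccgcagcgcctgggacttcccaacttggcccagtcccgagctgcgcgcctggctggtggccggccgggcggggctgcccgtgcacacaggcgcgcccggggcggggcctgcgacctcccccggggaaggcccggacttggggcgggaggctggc
On either strand, CAGAC occurred in 42.2% of 32851 promoter windows of this kind. The nuclear receptor letters AGGTCA, the AP-1 letters TGANTCA and the hypoxia response letters ACGTG were searched on both strands too. They had 0 matches in the Loxl4 window and were found in 14.0%, 6.75% and 16.6% of all windows. These letters are matches and not shown to be sites; the window was 76.0% G and C.

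Tgm2, the transglutaminase (ENSMUSG00000037820, chromosome 2, 157958322 to 157988356, minus strand), was the most abundant of the 6 transcripts in Control. Its level was 77.58 and 78.03 FPKM in the K-80003 libraries, 197.48 and 220.92 FPKM in the TGF-beta libraries, and 147.29 and 134.48 FPKM in the Control libraries. The 3 groups did not overlap, with K-80003 lowest and TGF-beta highest. The difference between TGF-beta and Control missed the threshold (log2 0.69, SE 0.15, 95% interval 0.33 to 1.05, edgeR adjusted p = 0.075). It passed in edgeR without the filter on low counts (0.0207), in DESeq2 (0.0104) and in edgeR with the crossed block (9.04e-08). With K-80003 Tgm2 was 2.9-fold lower than with TGF-beta alone (log2 -1.54, SE 0.15, edgeR adjusted p = 0.00225), a call kept without any one library. It was 1.79-fold lower than in Control (log2 -0.84, SE 0.15, edgeR adjusted p = 0.0124). The call against Control was lost without K-80003 replicate 1 (0.112) or replicate 2 (0.13), and with the replicate number as a block (0.0565).

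Counted together, 3 of the 6 members rose with TGF-beta against Control and 0 fell, beside 2.94% of all genes tested that were called, 1.06% higher and 1.88% lower. Between K-80003 and TGF-beta alone, 4 of 6 fell and 0 rose, where 10.1% of all genes were called, 2.78% higher and 7.32% lower. Against Control, the K-80003 group had 1 member higher (Lox) and 2 lower (Loxl3 and Tgm2), where 17.3% of all genes were called, 5.54% higher and 11.7% lower. The median log2 change of the 6 members was 1.1, -1.18 and -0.11 in these 3 comparisons in turn, beside medians of 0.01, 0.01 and 0.02 over all genes. Libraries that did not overlap between groups were common over all genes, and the members' counts have to be read beside that. With TGF-beta against Control 5 of the 6 members lay wholly higher, where 38.4% of all genes did not overlap, 18.5% higher and 19.8% lower. Between K-80003 and TGF-beta all 6 lay wholly lower, where 51.4% of all genes did not overlap, 24.6% higher and 26.8% lower. Between K-80003 and Control 3 of the 6 lay wholly higher and 2 wholly lower, where 55.5% of all genes did not overlap, 27.4% higher and 28.1% lower. The first 2 comparisons share the TGF-beta libraries, so opposite signs in them are not independent of each other.

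**Figure D2:**
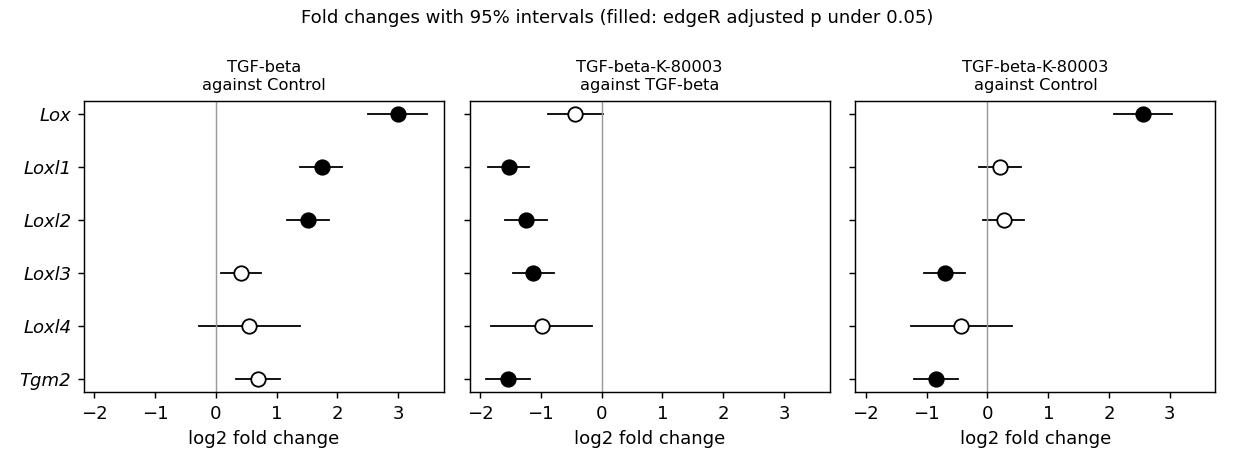
Log2 fold change of each of the 6 genes (horizontal axis) with its 95% interval, in the 3 comparisons; filled circles passed an edgeR adjusted p of 0.05. With K-80003 against Control, Lox lies at 2.56 and the other 5 genes lie between -0.84 and 0.27.

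The make-up of the family changed with these shifts. Among the summed FPKM of the 5 lysyl oxidases, Lox supplied 51.4% and 51.2% in the K-80003 libraries, 38.1% and 37.8% in the TGF-beta libraries, and 17.4% and 14.7% in the Control libraries. Loxl2 supplied 39.2% and 39.8% with K-80003, 52.4% and 50.4% with TGF-beta, and 57.2% and 64.9% in Control. Lox was thus the most abundant lysyl oxidase transcript in the K-80003 group, and Loxl2 in the other groups. Lox per Loxl2 was 1.31 and 1.29 with K-80003, 0.726 and 0.751 with TGF-beta, and 0.303 and 0.227 in Control, with no overlap between groups. Loxl1 per Loxl2 moved far less, at 0.0272 and 0.0301 with K-80003, 0.0375 and 0.0325 with TGF-beta, and 0.0304 and 0.0292 in Control.

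Loxl4 supplied 5.95% ± 0.524 of the family with K-80003, 6.39% ± 1.92 with TGF-beta and 14.8% ± 3.81 in Control (SD, n = 2 each). Loxl3 supplied 2.1% ± 0.141, 2.51% ± 0.0871 and 6.32% ± 0.176 in the same groups, and Loxl1 under 2% in every library. The summed level of the 5 was 329.3 and 301.7 FPKM with K-80003, 507.9 and 560.1 FPKM with TGF-beta, and 181.6 and 162.2 FPKM in Control. The sum in the K-80003 group thus lay between the others, with Lox and Loxl2 as its main parts. No test was made of these shares: with 2 libraries against 2, an exact permutation test cannot give a p below 0.333.

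**Figure D3:**
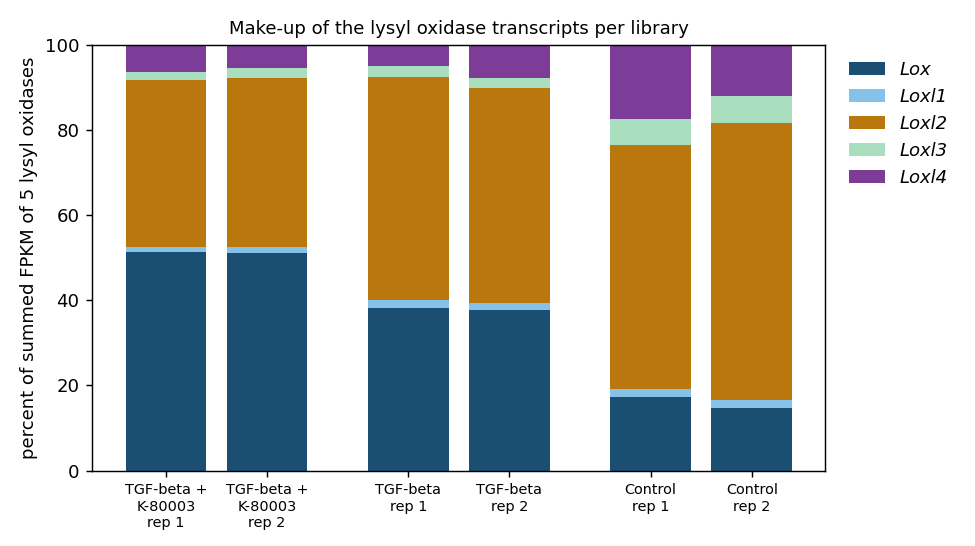
Share of each lysyl oxidase in the summed FPKM of the 5 (vertical axis, percent, 0 to 100) in each library. Lox supplies 51.4% and 51.2% in the K-80003 libraries, 38.1% and 37.8% in the TGF-beta libraries and 17.4% and 14.7% in the Control libraries.

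Set against Tgm2, the change of Lox was wider still. Lox per Tgm2 was 2.18 and 1.98 with K-80003, 0.979 and 0.959 with TGF-beta, and 0.214 and 0.178 in Control. By mean FPKM the K-80003 group had the order Lox, Loxl2, Tgm2, Loxl4, Loxl3 and Loxl1, with the libraries of each neighbouring pair apart. With TGF-beta the order was Loxl2, Tgm2, Lox, Loxl4, Loxl3 and Loxl1, and the libraries of Tgm2 and Lox overlapped. In Control it was Tgm2, Loxl2, Lox, Loxl4, Loxl3 and Loxl1, and the libraries of Lox and Loxl4 overlapped.

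Profiles over the 6 libraries sorted the members by how near they lay to each other. The measure was the Euclidean distance between log2 CPM values centred on each gene's mean, which is a description with no test. Loxl1 and Loxl2 were 0.35 apart, Loxl3 and Tgm2 0.42 apart, and Lox between 2.36 and 3.49 from every other member. Among 7904 genes with a mean of at least 5 FPKM in their highest group, the nearest to Lox were Dpep1, a membrane dipeptidase (distance 0.66), Ncam1, a neural adhesion molecule (0.86), and Pmepa1, a feedback inhibitor of TGF-beta signalling (0.94). Dpep1 had 4.06 and 4.37 FPKM with K-80003, 7.96 and 6.88 FPKM with TGF-beta, and 0.82 and 0.87 FPKM in Control. Pmepa1 had 59.21 and 66.46 FPKM with K-80003, 102.78 and 85.81 FPKM with TGF-beta, and 16.3 and 19.2 FPKM in Control. Ncam1 had 3.7 and 3.37 FPKM with K-80003, 4.94 and 7.22 FPKM with TGF-beta, and 0.49 and 0.7 FPKM in Control. In all 3 the Control libraries were the lowest, as the choice by nearness to Lox makes likely, so no test is given for them.

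Loxl1 lay nearest to Fzd2, a WNT receptor (0.2), Itgb5, an integrin subunit (0.32), and Loxl2 (0.35). Loxl2 lay nearest to Itgb5 (0.29), Nrep (0.34) and the fibrillar collagen chain Col5a2 (0.35). Itgb5 had 148.71 and 165.3 FPKM with K-80003, 358.67 and 335.09 FPKM with TGF-beta, and 113.69 and 124.71 FPKM in Control. Loxl3 lay nearest to Scarb2, a lysosomal membrane receptor (0.18), Col16a1, a fibril-associated collagen (0.2), and Gucy1b1, a subunit of soluble guanylate cyclase (0.2). Tgm2 lay nearest to Cd200r1, a receptor for Cd200 (0.13), Htra3, a secreted serine protease (0.2), and Pde1a, a cyclic nucleotide phosphodiesterase (0.21). Loxl4, with its spread within groups, lay nearest to Maml2, a Notch coactivator (0.24), Ndst1, a heparan sulfate sulfotransferase (0.31), and Adarb1, an RNA-editing adenosine deaminase (0.35).

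**Figure D4:**
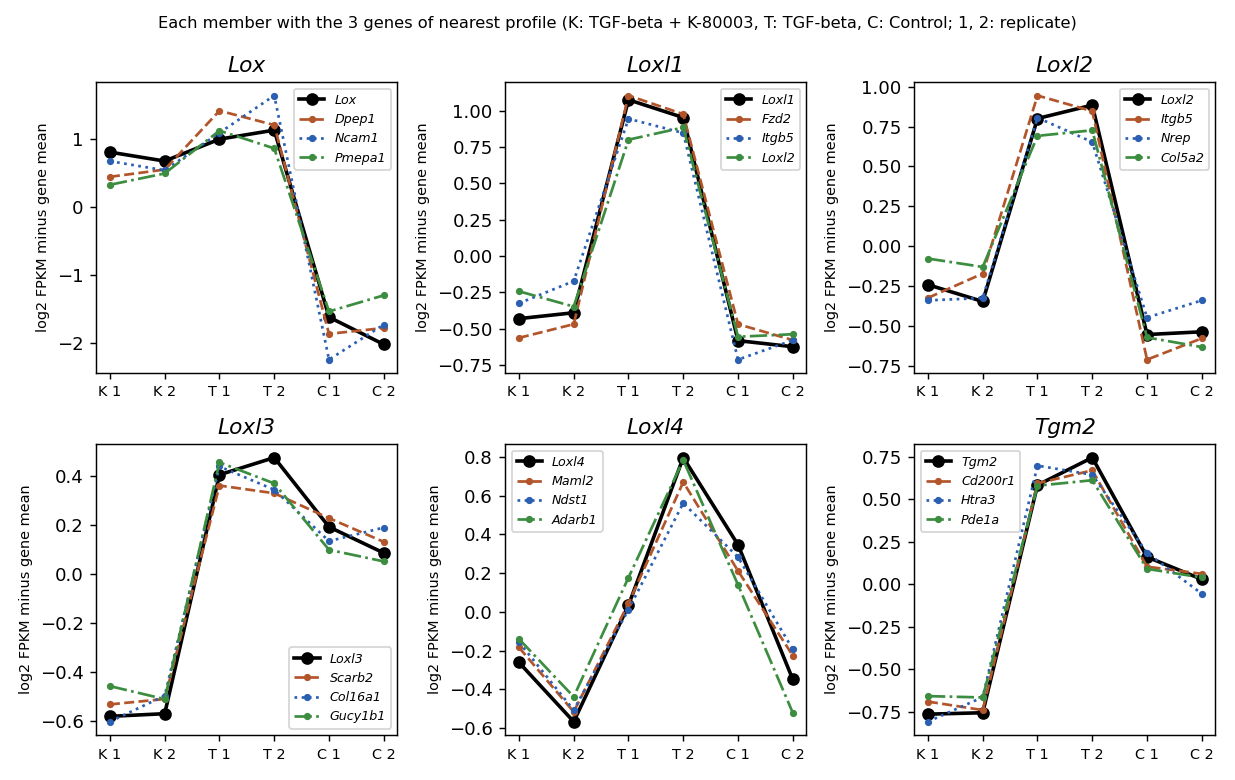
Level of each member (black) and its 3 nearest genes in the 6 libraries, as log2 FPKM minus the gene's mean (vertical axis), with K for TGF-beta with K-80003, T for TGF-beta and C for Control. Lox and its neighbours are low in the 2 Control libraries alone, Loxl1 and Loxl2 are high with TGF-beta alone, and Loxl3 and Tgm2 are lowest with K-80003.

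Some members lie on the genome across other counted genes. The Tgm2 gene overlaps Rprd1b, on the opposite strand, over 15896 bases; Rprd1b had 636 and 623 counts with K-80003, 625 and 683 with TGF-beta, and 644 and 618 in Control, with no shift like that of Tgm2. Loxl3 overlaps Htra2, also on the opposite strand, over 1297 bases; Htra2 had 830 and 876 counts with K-80003, 1088 and 886 with TGF-beta, and 800 and 867 in Control. Lox overlaps the predicted gene Gm41724 over 1207 bases on the opposite strand, and that gene had 16 and 17 counts with K-80003, 19 and 13 with TGF-beta, and 4 and 3 in Control. The sources give no strand setting for the counting, so reads of such pairs cannot be told apart where they overlap. The predicted genes and microRNA that overlap Loxl2 had at most 12 counts in any library.

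Counts in the lists from here on have to be read beside the shares called over all genes tested. With TGF-beta against Control these were 1.06% higher and 1.88% lower. For K-80003 they were 2.78% and 7.32% against TGF-beta alone, and 5.54% and 11.7% against Control. Among the substrates of these enzymes, fibrillar collagen chains come first. Of 11 fibrillar collagen chains 10 were tested, and with TGF-beta 5 rose and 0 fell (median log2 1.0). Col1a1, a chain of type I collagen, averaged 4556.0 ± 530.6 CPM with TGF-beta and 1438.5 ± 27.4 CPM in Control (log2 1.66, SE 0.15), and Col11a1, a minor fibril chain, 15.2 ± 2.97 and 1.33 ± 0.33 CPM in these groups (3.51, SE 0.28). With K-80003 against TGF-beta alone 7 fell and 0 rose (median -1.22). Col3a1, the type III chain, averaged 981.6 ± 17.0 CPM with K-80003, 6226.8 ± 134.7 CPM with TGF-beta and 3066.7 ± 288.5 CPM in Control, and so was lower than Control (log2 -1.64, edgeR adjusted p = 0.000956). The fall of the list against TGF-beta counted 4 without K-80003 replicate 1 or 2. Against Control 2 of the 10 were higher with K-80003 and 4 lower, and 0 higher and 3 lower without either K-80003 library or either Control library.

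Elastin and the scaffold of elastic fibres, the other main substrate of lysyl oxidases, gave 4 genes higher and 1 lower of 16 tested with TGF-beta (median log2 0.72). Without TGF-beta replicate 2 there were 2 higher. Eln, elastin itself, averaged 14.3 ± 0.864 CPM with K-80003, 115.7 ± 5.32 CPM with TGF-beta and 21.6 ± 1.6 CPM in Control, a rise of 2.42 with TGF-beta and a log2 change of -3.01 with K-80003 against TGF-beta alone (SE 0.15 for both, edgeR adjusted p = 0.006 and 0.000456). Efemp1, a fibulin, was the gene that fell with TGF-beta (log2 -1.12), a call lost in 5 of the 6 fits without 1 library, all but that without Control replicate 1. With K-80003 9 of the 16 were lower than with TGF-beta alone and 0 higher (median -1.6), and 4 were lower without K-80003 replicate 1 or 2. Ltbp2, a latent TGF-beta binding protein of microfibrils, averaged 2.22 ± 0.411 CPM with K-80003, 54.6 ± 12.6 CPM with TGF-beta and 5.29 ± 2.08 CPM in Control. Fbln2, another fibulin, did not follow this order: it averaged 263.2 ± 15.6 CPM with K-80003, 233.1 ± 30.3 CPM with TGF-beta and 58.5 ± 17.6 CPM in Control, and was 2.17 above Control on the log2 scale with K-80003 (edgeR adjusted p = 0.00226). Against Control 2 of the 16 were higher with K-80003 and 7 lower (median -0.81). The count of higher genes was 1 without any library other than Control replicate 1, and that of lower genes was 3 without K-80003 replicate 1, and 4 without K-80003 replicate 2 or without Control replicate 1.

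Partners that process lysyl oxidases or hold them on the fibril rose in 4 of 11 cases with TGF-beta (Postn, Bmp1, Pcolce2 and Sparc; median log2 0.85). This count was 1 without Control replicate 1 and 0 without any other library. Bmp1, the protease that cuts the Lox propeptide, averaged 150.8 ± 5.07 CPM with K-80003, 213.1 ± 12.2 CPM with TGF-beta and 118.0 ± 9.95 CPM in Control. With K-80003 against TGF-beta alone 4 fell (Fmod, Postn, Pcolce and Adamts2; median -0.5), and the count stayed at 4 without any one library. Postn, periostin, a scaffold protein that brings Bmp1 to Lox, averaged 545.2 ± 18.2 CPM with K-80003, 1490.6 ± 93.3 CPM with TGF-beta and 684.5 ± 71.5 CPM in Control. Fmod, fibromodulin, a proteoglycan that binds Lox to collagen, was at 0.137 ± 0.0283 CPM with K-80003, 7.75 ± 1.68 CPM with TGF-beta and 10.3 ± 0.615 CPM in Control. Against Control 2 of the 11 were higher with K-80003 and 3 lower (median 0.12), and 1 and 2 without either K-80003 library or Control replicate 1.

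Lysyl hydroxylases and collagen chaperones act before lysyl oxidases, on the same lysines. With TGF-beta 4 of 10 rose (Plod2, Fkbp10, P3h4 and Serpinh1; median log2 0.56), a count that was 0 or 1 without any one library. Plod2, the hydroxylase of the collagen telopeptides where lysyl oxidases act, averaged 163.8 ± 2.25 CPM with K-80003, 683.8 ± 23.2 CPM with TGF-beta and 258.3 ± 29.9 CPM in Control. It was the one gene of the list that fell with K-80003 against TGF-beta (log2 -2.06, SE 0.15, edgeR adjusted p = 0.00104), also without any one library. Its partner Fkbp10 averaged 247.5 ± 12.9 CPM with K-80003, 351.4 ± 30.0 CPM with TGF-beta and 160.3 ± 4.54 CPM in Control. Against Control Fkbp10 was higher with K-80003 (log2 0.63, edgeR adjusted p = 0.0302) and Plod2 lower (-0.66, 0.0284), calls lost for Fkbp10 without any one library, and for Plod2 without either K-80003 library, TGF-beta replicate 1 or Control replicate 1.

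Copper-handling genes of the cell, not all of which serve these enzymes, gave 0 edgeR calls of 12 with TGF-beta (median log2 0.0). At an unadjusted p under 0.05 there were 0, and 0 in DESeq2, in limma or in edgeR without the filter on low counts. With K-80003 against TGF-beta they gave 0 edgeR calls too (median 0.09), with 3 at an unadjusted p under 0.05, 1 in DESeq2, 0 in limma and 2 in edgeR without the filter on low counts. Against Control 1 was lower with K-80003, the copper exporter Atp7b, at 1.07 ± 0.111 CPM with K-80003 and 4.5 ± 1.61 CPM in Control, a call lost without either K-80003 library and without Control replicate 1. In that comparison 11.7% of all genes tested were called lower, and 1 of 12 does not exceed that share. Slc31a1, the main copper importer, averaged 130.4 ± 9.54 CPM with K-80003, 110.3 ± 3.2 CPM with TGF-beta and 107.6 ± 5.62 CPM in Control. Atp7a, another gene of this list, had a log2 of 0.0 with an SE of 0.68 for TGF-beta against Control, so a change in either direction was within the error. Of the other copper amine oxidases, which are not matrix enzymes, Aoc2 was higher with K-80003, at 7.98 ± 0.239 CPM, against 3.53 ± 0.591 CPM with TGF-beta and 3.3 ± 0.412 CPM in Control. Its edgeR adjusted p was 0.0235 against TGF-beta (log2 1.18), lost without any one TGF-beta or K-80003 library, and 0.0127 against Control (log2 1.27), lost without either K-80003 library or Control replicate 1. Aoc1 was lower with K-80003 than with TGF-beta (log2 -3.89, edgeR adjusted p = 0.0165), at 0.202 ± 0.212 and 3.01 ± 0.976 CPM, and lost its call without K-80003 replicate 1 or TGF-beta replicate 2.

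Tgm2 had little company within its own family. Of 9 other transglutaminase genes, Tgm4, a transglutaminase known from the prostate, alone passed the filter on low counts, at 1.51 ± 0.233 CPM with K-80003, 1.3 ± 0.163 CPM with TGF-beta and 1.4 ± 0.56 CPM in Control, with 0 calls. Among 14 partners and substrates of transglutaminase 2, 1 rose with TGF-beta (Itga5, an integrin subunit that binds fibronectin) and 2 fell (Spp1 and Adgrg1); without any one library the calls of Itga5 and Adgrg1 were lost, and without either TGF-beta library that of Spp1. With K-80003 against TGF-beta 3 fell (Sdc4, Ltbp1 and Pdgfrb; list median -0.36), and 0 did without K-80003 replicate 1 or 2. Sdc4, syndecan-4, a surface proteoglycan that binds transglutaminase 2, averaged 62.6 ± 4.86 CPM with K-80003, 152.0 ± 20.9 CPM with TGF-beta and 150.4 ± 26.7 CPM in Control. Like Tgm2 it was lowest with K-80003. Its difference between TGF-beta and Control did not pass the test (log2 0.02, SE 0.19), and neither did that of Tgm2. Against Control 1 was higher with K-80003, again Itga5, and 4 lower (median 0.05); without either K-80003 library 2 were lower, and without K-80003 replicate 1 Itga5 lost its call. In that comparison 5.54% of all genes tested were called higher and 11.7% lower. The 1 of 14 higher is near that share. Itga5 averaged 229.8 ± 13.1 CPM with K-80003, 192.9 ± 11.2 CPM with TGF-beta and 103.2 ± 16.9 CPM in Control. Fn1, fibronectin, which transglutaminase 2 both binds and crosslinks, passed in none of the 3 comparisons (log2 1.6, SE 0.54, with TGF-beta against Control, edgeR adjusted p = 0.223).

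Lox, Loxl2 and Loxl4 are known targets of hypoxia-inducible factors, and Tgm2 is a known target of retinoic acid receptors, which pair with RXRα. Of 14 hypoxia-response genes 0 were called by edgeR with TGF-beta (median log2 -0.27), with 9 at an unadjusted p under 0.05, 4 called in DESeq2, 2 in limma and 3 in edgeR without the filter on low counts. With K-80003 against TGF-beta 2 were higher and 4 lower (median -0.43), and 0 higher and 1 lower without either K-80003 library. These counts were 2 and 1 without TGF-beta replicate 1, and 1 and 2 without TGF-beta replicate 2. Against Control 2 were higher with K-80003 and 3 lower (median -0.33), with 1 higher without any one library. Vegfa, an angiogenic factor, averaged 157.7 ± 9.66 CPM with K-80003, 69.0 ± 6.76 CPM with TGF-beta and 48.4 ± 1.3 CPM in Control, whereas Adm, adrenomedullin, averaged 40.2 ± 0.397, 175.8 ± 24.9 and 285.8 ± 54.8 CPM in the same groups. Of 7 retinoic acid response genes tested, out of 11 listed, 5 were lower with K-80003 than with TGF-beta alone (median -2.0), and 3 without K-80003 replicate 1 or 2. The counts against Control were the same, 5 and 3 (median -2.14). With TGF-beta against Control 1 fell, Cyp26b1 (log2 -1.69, edgeR adjusted p = 0.0184), a call lost without any one TGF-beta or Control library. Cyp26b1, which degrades retinoic acid, averaged 1.34 ± 0.481 CPM with K-80003, 9.78 ± 1.43 CPM with TGF-beta and 31.5 ± 2.86 CPM in Control. Rarb, a retinoic acid receptor and itself a target, averaged 15.7 ± 1.58 CPM with K-80003, 50.3 ± 10.3 CPM with TGF-beta and 36.1 ± 7.29 CPM in Control. Whether the hypoxia-response or retinoic acid response genes bear on Tgm2 or the lysyl oxidases was not tested. Both Cyp26b1 and Rarb fell against TGF-beta (log2 -2.85 and -1.68, edgeR adjusted p = 0.00206 and 0.00626), the call of Rarb being lost without K-80003 replicate 2.

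Markers of the cells themselves moved between the groups too. In the cholangiocyte, mesothelial and portal fibroblast lists the widest gap in summed CPM lay between Control and both treated groups. Of the 13 stellate markers, 8 were lower with K-80003 than with TGF-beta and 11 lower than in Control, while 0 were higher in either; without K-80003 replicate 1 or 2 these counts were 4 and 6. Among 12 sinusoidal endothelial markers 4 were higher and 1 lower with K-80003 against TGF-beta, and 1 was higher without TGF-beta replicate 1 and 0 without TGF-beta replicate 2 or either K-80003 library. Their sum was 854.0 to 965.0 CPM with K-80003, 475.8 to 583.7 CPM with TGF-beta and 707.4 to 855.3 CPM in Control. The cholangiocyte list summed to 96.5 to 109.0 CPM with K-80003, 125.6 to 151.7 CPM with TGF-beta and 349.3 to 477.3 CPM in Control, and the mesothelial list, mostly Krt8 and Krt18, to 134.5 to 167.1, 154.6 to 188.4 and 533.3 to 766.3 CPM in the same groups. Macrophage markers summed to 31.0 to 36.0 CPM with K-80003, 56.9 to 61.5 CPM with TGF-beta and 69.0 to 75.0 CPM in Control, with 4 of 13, Clec4f, C1qa, C1qb and Vsig4, below the filter. The portal fibroblast list, of which Fbln2 gave most, summed to 258.5 to 281.2 CPM with K-80003, 226.4 to 268.3 CPM with TGF-beta and 55.6 to 81.7 CPM in Control, and 4 of its 8 genes, Thy1, Clec3b, Pi16 and Gli1, were below the filter. Hepatocyte markers summed to 5.03 and 49.1 CPM in K-80003 replicates 1 and 2, 10.7 and 11.1 CPM in the TGF-beta libraries, and at least 14.3 CPM in the Control libraries, and of 10 lymphocyte and neutrophil markers 0 passed the filter, with Ly6g at 0 counts in every library. The part of these shifts in the changes of the 6 enzymes was not tested.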

How the data were processed

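The read counts per gene that the authors deposited were not normalized. Deposited FPKM equalled, within 0.005, the count per exonic length and library total. The submitters' processing notes list HTSeq 0.6.1, Cufflinks 2.2.1, HISAT2 2.0.1, DESeq2, SAMtools 0.1.19 and cutadapt 1.9.1, and the build GRCm39, with no roles, order or strand setting. The protocol in the labels names no molecular identifiers, so counts are of reads and not of molecules.

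Counts of all 6 libraries (15646093 to 19004144 each) were fitted together with edgeR 4.0.16 (R 4.3.3): TMM scaling, filterByExpr (min.count 10, min.total.count 15, 15987 genes kept), quasi-likelihood test, two-sided, no block, Benjamini-Hochberg adjustment over all genes tested, called under 0.05. CPM values, computed from the deposited counts, are scaled by TMM; fold changes come from this fit and not from FPKM, and the SE is the log2 change over the root of F. DESeq2 1.42.0, limma 3.58.1 on log2(FPKM + 1) and log2(FPKM + 0.1), other scalings, no filter, only the groups compared, a replicate block and each library left out were alternatives. Where a group is left with 1 library, it is assumed to vary like the others.

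Named are the 6 members, up to 4 genes with the smallest p per pathway list and comparison, the 3 nearest profiles per member, genes on overlapping loci, and the 3 most abundant genes of each marker list. A few others that were singled out after their values were seen are Fn1, Slc31a1, Atp7a, Lrat, genes listed below the filter, and genes named to complete a small count. The members and all lists were chosen with earlier results of these data known. Promoters are from RefSeq (GRCm38.p6), and coding stretches are the longest open reading frame of the longest protein-coding GENCODE M21 transcript; 1 of the 6 members had a promoter entry.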

Additional observations from a re-analysis of the deposited data

How the results depend on the processing

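No log2 fold change of the 6 members changed direction under the alternatives run. Over these changes in the 3 comparisons, leaving out 1 library gave 100 on the same side of the threshold and 8 that lost their call, and the other alternatives gave 148, with 11 calls gained and 3 lost. The count of members called for K-80003 against TGF-beta was 2 to 4 with a library left out, lowest without K-80003 replicate 2, and for K-80003 against Control 1 to 3, lowest without either K-80003 library. Loxl4 passed for K-80003 against TGF-beta with no filter on low counts (edgeR adjusted p = 0.000118), in DESeq2 (0.049) and with the crossed block (edgeR adjusted p = 3.37e-10). The smallest count of a member was 163, and each group had 2 libraries.

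Genes called in all moved more than the members did. For TGF-beta against Control 470 genes were called, 1143 with no filter, 846 with DESeq2, 199 with only the 2 groups compared and 89 to 218 with a library left out. For K-80003 against TGF-beta 1616 were called, 2492 with no filter and 451 to 1661 with a library left out. For K-80003 against Control 2758 were called, and 996 to 2397 with a library left out. The share of calls that were higher was 36.2% for TGF-beta against Control and 27.5% for K-80003 against TGF-beta; with limma it was 22.9% and 40.2% on log2(FPKM + 1) and 25.7% and 37.9% on log2(FPKM + 0.1). The last moved the median of all genes to -0.101 and 0.111 in these comparisons. By counts in place of FPKM, Lox made up 49.3% of the family with K-80003 and 36.0% with TGF-beta, and Loxl2 42.9% and 55.2%. The causes were not tested.

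With the replicate block the members called were 2 for TGF-beta against Control, 4 for K-80003 against TGF-beta and 1 for K-80003 against Control, and the genes called in all 40, 792 and 1564. The labels do not say what the replicate numbers share. Deviations of replicate 1 from the group mean over 9626 genes correlated at -0.845 between K-80003 and TGF-beta, 0.834 between K-80003 and Control and -0.875 between TGF-beta and Control, so same-numbered libraries deviated together in K-80003 and Control, and in opposite directions in TGF-beta. A block with the TGF-beta numbers crossed, added after the data were seen, called 6, 6 and 5 members and 3708, 5903 and 7352 genes in all.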
